A study of Homo sapiens with 5 samples.

Results

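The 6 DNA topoisomerase genes (TOP1, TOP1MT, TOP2A, TOP2B, TOP3A and TOP3B) and the 2 tyrosyl-DNA phosphodiesterase genes (TDP1 and TDP2) were examined in RPE1 cells treated with doxorubicin. They were chosen by gene symbol as the targets of the drug, the relatives of these targets and the enzymes that clear trapped topoisomerases from DNA. These 8 genes are 8 of the 26485 genes with deposited counts, and 8 of 8 passed the filter on low counts, which kept 14187 genes. RPE1 is an established, telomerase-immortalised line of human retinal pigment epithelial cells, here labelled wild type. The control group held 2 libraries of cells incubated for 18 h with DMSO, the solvent of the drug. The treated group held 3 libraries of cells incubated for 18 h with doxorubicin, 2 at 0.2 μM and 1 at 0.34 μM, doses taken from the sample labels. Poly-A RNA was sequenced, and the study calls the libraries biological replicates.

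Topoisomerases relax and untangle DNA by cutting it and holding the cut end through a tyrosine of the enzyme. Type II enzymes (TOP2A and TOP2B) cut both strands, while type IB (TOP1 and the mitochondrial TOP1MT) and type IA enzymes (TOP3A and TOP3B) cut a single strand. Doxorubicin intercalates into DNA and traps type II enzymes on the cut, and the trapped complex can become a double-strand break. TDP2 removes the peptide left by a trapped type II enzyme, and TDP1 removes that left by trapped TOP1. TOP2A is made mainly by dividing cells and peaks in G2 and mitosis, while TOP2B is made throughout the cell cycle and in resting cells.

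Library totals ranged from 23773061 to 36725345 counts. Levels are given as CPM, counts per 1000000 counts of a library after TMM normalization, and the fold changes are doxorubicin over DMSO on the log2 scale. The 3 treated libraries were taken as 1 group, as the study did, and the threshold was an adjusted p of 0.01 in edgeR's quasi-likelihood test over all 14187 genes tested. Of these genes, 571 passed (4.02%), 388 lower (2.73%) and 183 higher (1.29%). Among markers of pigment epithelium, 1 of 7 had at least 1 CPM in every library (MITF), and RPE65, RLBP1, TYR and SERPINF1 had means under 1 CPM in both groups. BEST1 and PMEL had means of 0.770 and 0.231 CPM in DMSO and 2.83 and 1.15 CPM in doxorubicin, with all treated libraries above both controls. KRT8 and KRT18 were at 357 and 282 CPM in DMSO and at 653 and 436 CPM in doxorubicin, while EPCAM and CDH1 were near 0. The blood markers PTPRC and CD14 summed to between 0.191 and 0.313 CPM in DMSO and between 1.04 and 2.20 CPM in doxorubicin. The endothelial marker CDH5 was at 2.19 CPM in DMSO replicate 2 and at 2.87 CPM in replicate 2 of 0.2 μM. In the other libraries it was between 0.0763 and 0.155 CPM. FN1, a mesenchymal marker, was at 9080 and 11510 CPM in these replicate 2 libraries and between 19193 and 19659 CPM in the others. CDH2 was also lowest in both replicate 2 libraries, while VIM and PECAM1 did not split so. The part of these markers, or of a batch, in the results was not tested.

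After doxorubicin the mRNA of 1 of the 8 genes, TOP2A, fell past the threshold, and none rose. Its level was 14.9% of that in DMSO. TDP1 followed, with a level of 41.5% of that in DMSO and an adjusted p just outside the threshold. TOP2B and TOP3A had levels of 60.4% and 61.3%, TOP1 of 69.8% and TDP2 of 92.2%, while TOP1MT and TOP3B had means above those in DMSO. The median log2 fold change of the 8 genes was -0.61, beside 0.013 over all genes tested. In 5 of the 8 genes all treated libraries lay below both controls, where 23.4% of all genes tested did so, and in 1 all lay above, where 24.3% did. Together these are 6 of 8 genes, beside 47.7% of all genes tested. At an adjusted p of 0.05 in edgeR, 3 of the 8 genes (TOP2A, TOP2B and TDP1) were lower, where 7.48% of all genes tested were, and DESeq2 at 0.01 gave the same 3 genes as lower, where 7.77% of its genes were.

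**Figure D1:**
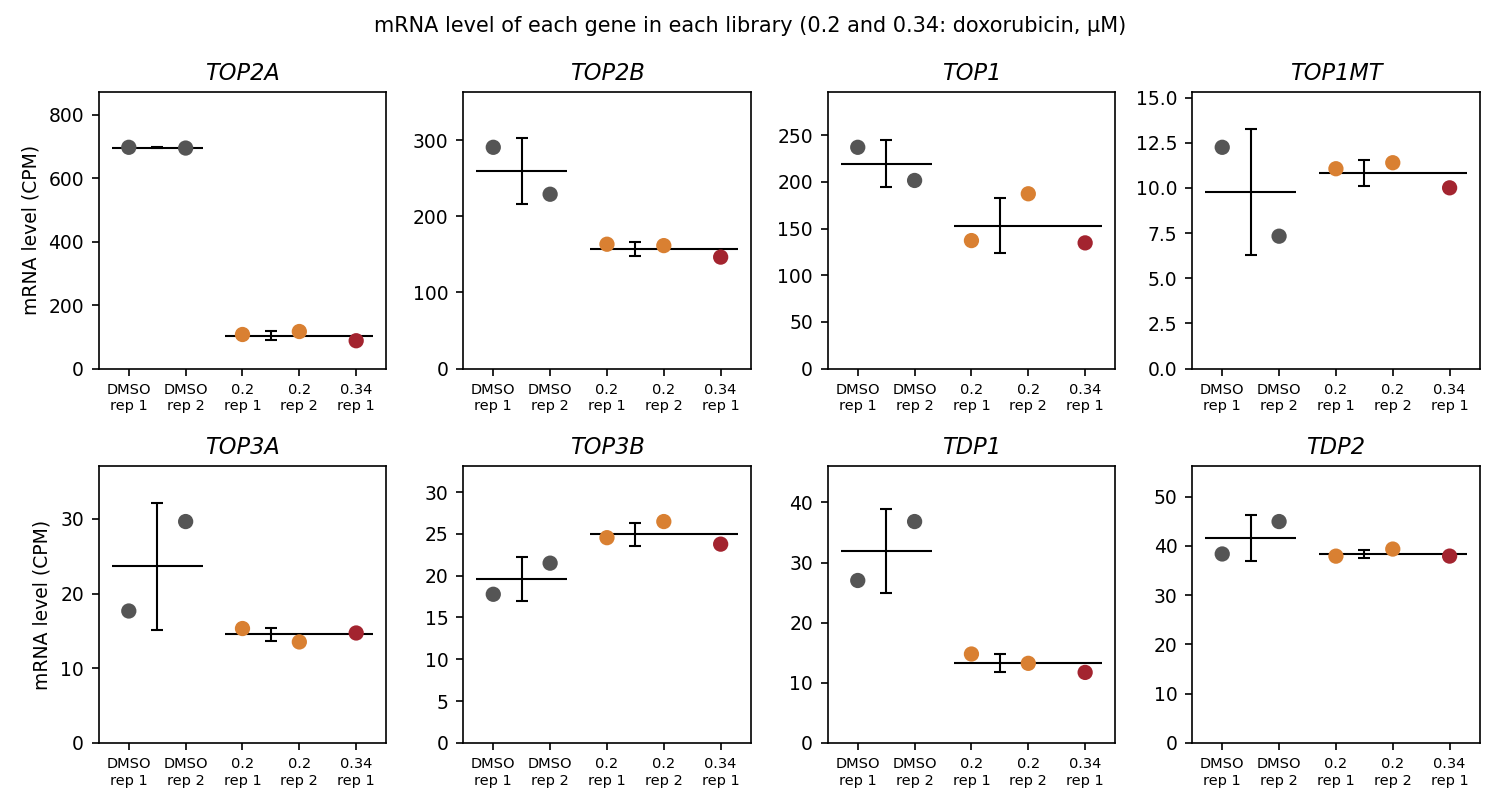
mRNA level of each gene in CPM (vertical axis, from 0) in each of the 5 libraries (horizontal axis). Points are libraries (grey DMSO, orange 0.2 μM, red 0.34 μM doxorubicin), horizontal lines the group means and bars the SD (n = 2 and n = 3). For TOP2A the DMSO libraries lie at 697 and 695 CPM and the treated ones between 87.5 and 117, while for TDP2 and TOP1MT the groups overlap.

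TOP2A encodes topoisomerase II alpha, which separates intertwined sister chromatids before mitosis and is the main target of the drug in dividing cells. The gene lies on chromosome 17 of GRCh38 (40388525 to 40417896, minus strand) and overlaps no other annotated gene. Its counts were 18272 and 17735 in DMSO, 2772 and 2804 at 0.2 μM and 3176 at 0.34 μM. The DMSO libraries lay at 697 and 695 CPM and the doxorubicin libraries at 107, 117 and 87.5. Thus the 0.34 μM library was the lowest, and all treated libraries were far below both controls. The mean was 696 ± 1.68 CPM (SD, n = 2) in the controls and fell 6.71-fold, to 104 ± 14.8 CPM (SD, n = 3), in the treated cells. On the log2 scale this was -2.75 (standard error 0.17, 95% interval -3.16 to -2.33, adjusted p = 0.0007 in edgeR). Of the 14187 genes tested, 0.987% had a lower log2 fold change. The DMSO libraries differed 1.00-fold in TOP2A, the closest of the 8 genes, in which this value went up to 1.68-fold. In 15 alternative analyses the log2 fold change of TOP2A stayed between -2.84 and -2.63, and all of them kept it past the threshold, with adjusted p-values of up to 0.00884.

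A list of 12 genes of the G2/M stage fell with it. The list was chosen as a reference for the cell cycle with earlier results of these data known, so its counts are a description. All 12 passed the threshold as lower, where 2.73% of all genes tested did, with log2 fold changes between -5.53 and -2.44, and 11 of the 12 had a lower value than TOP2A. For example, MKI67, a marker of dividing cells, was at 1259 CPM in DMSO and at 50.2 CPM in doxorubicin, and CDK1, the kinase that starts mitosis, was at 73.2 and 13.5 CPM. The part of this in the fall of TOP2A was not tested. In bulk RNA, a different share of cells in a stage and a different amount of TOP2A mRNA in each cell cannot be told apart. By flow cytometry, the study reported a larger share of cells in G2/M after doxorubicin. How this share relates to the lower G2/M mRNA was not tested.

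TOP2B encodes topoisomerase II beta, which acts at promoters of transcribed genes and is linked to the toxicity of the drug for the heart. Its place is chromosome 3 (25597905 to 25664907, minus strand), where it shares 28 bases with RARB and contains MIR4442 (log2 fold changes of 0.37 and -0.05, adjusted p = 0.180 and 0.960 in edgeR). Its counts were 7619 and 5846 in DMSO, 4223 and 3884 at 0.2 μM and 5312 at 0.34 μM. These were 291 and 229 CPM in DMSO, 163 and 161 CPM at 0.2 μM and 146 CPM at 0.34 μM. The groups did not overlap, and the treated libraries were closer to each other than the controls were. The mean was 260 ± 43.6 CPM (SD, n = 2) in DMSO and 157 ± 9.29 (SD, n = 3) in doxorubicin. This gave a log2 fold change of -0.73 (standard error 0.16, 95% interval -1.11 to -0.34) with an adjusted p of 0.0312 in edgeR, which missed the threshold. DESeq2 on the same groups gave an adjusted p of 0.00108, which passed it, as did 14.2% of the 14290 genes with an adjusted p in DESeq2.

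The promoters of these type II enzymes are shown because both encode targets of the drug and had different fold changes. Each is the stretch of 250 bases before the annotated start (RefSeq, GRCh38.p14, written 5′ to 3′ on the strand of the gene). Capitals mark CCAAT, read here on the other strand as ATTGG, and TTTGAA, read on the other strand as TTCAAA. The first is the site of the factor NF-Y, and the second is a form of the CHR element of genes expressed late in the cell cycle.
TOP2A, chr17:40417897-40418146, minus strand: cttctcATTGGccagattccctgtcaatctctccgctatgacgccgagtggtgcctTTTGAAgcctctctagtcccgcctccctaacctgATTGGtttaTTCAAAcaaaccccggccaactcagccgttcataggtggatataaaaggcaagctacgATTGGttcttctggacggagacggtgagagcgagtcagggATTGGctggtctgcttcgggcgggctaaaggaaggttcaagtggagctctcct
TOP2B, chr3:25664908-25665157, minus strand: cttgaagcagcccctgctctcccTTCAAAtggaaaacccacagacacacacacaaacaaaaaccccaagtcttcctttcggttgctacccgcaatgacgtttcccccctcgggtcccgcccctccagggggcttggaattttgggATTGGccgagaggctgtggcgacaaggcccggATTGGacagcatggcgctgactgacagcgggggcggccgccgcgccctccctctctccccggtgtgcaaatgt

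The TOP2A window held 4 CCAAT letters, beginning 244, 160, 93 and 53 bases before the start, and 2 TTTGAA, beginning 194 and 151 bases before it. The TOP2B window held 2 CCAAT, at 105 and 73 bases, and 1 TTTGAA at 227 bases. Thus both windows contain the same letters, with more of them and closer spacing of CCAAT to TTTGAA in TOP2A. Of 35116 such windows of annotated starts, 32.0% held CCAAT on either strand and 13.3% held TTTGAA. At the number found in TOP2A, 0.874% held CCAAT at least 4 times, and 0.103% did so together with TTTGAA. The share for the numbers found in TOP2B was not computed. The related letters TTCGAA, found in 1.19% of windows, were in none of the windows of these genes. GGGCGG, the GC box, was found on either strand in 42.6% of windows, once in TOP2A and 2 times in TOP2B. None of these matches overlapped in the TOP2A and TOP2B windows. A further annotated start of TOP2B, with the window chr3:25664373-25664622, held no CCAAT or TTTGAA. Windows were found for 7 of the 8 genes. Those of TOP1, TOP3A, TOP3B and TDP2 held no CCAAT or TTTGAA, and that of TDP1, which lies before a further start and not before the start of the annotated gene, held 1 TTTGAA and no CCAAT. The letters are a description and do not show that a factor was bound.

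The balance between the type II enzymes was compared in each library. The count of TOP2A was 2.40 and 3.03 times that of TOP2B in DMSO, 0.656 and 0.722 times at 0.2 μM and 0.598 times at 0.34 μM. So the gene with more counts was TOP2A in both DMSO libraries and TOP2B in all doxorubicin libraries. Counts are not corrected for gene length, and per length the higher gene in doxorubicin depended on the length used. There TOP2A made up between 37.9% and 42.4% of the pair with the canonical transcript of each gene as its length. With all annotated exons as the length it made up between 63.6% and 67.9%. The log2 ratio of their CPM was 1.43 ± 0.24 (SD, n = 2) in DMSO and -0.61 ± 0.14 (SD, n = 3) in doxorubicin, a difference of -2.04. In an exact two-sided permutation test over the libraries p was 0.2, the smallest value that 3 against 2 libraries allow, so that this design cannot reach 0.05.

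**Figure D2:**
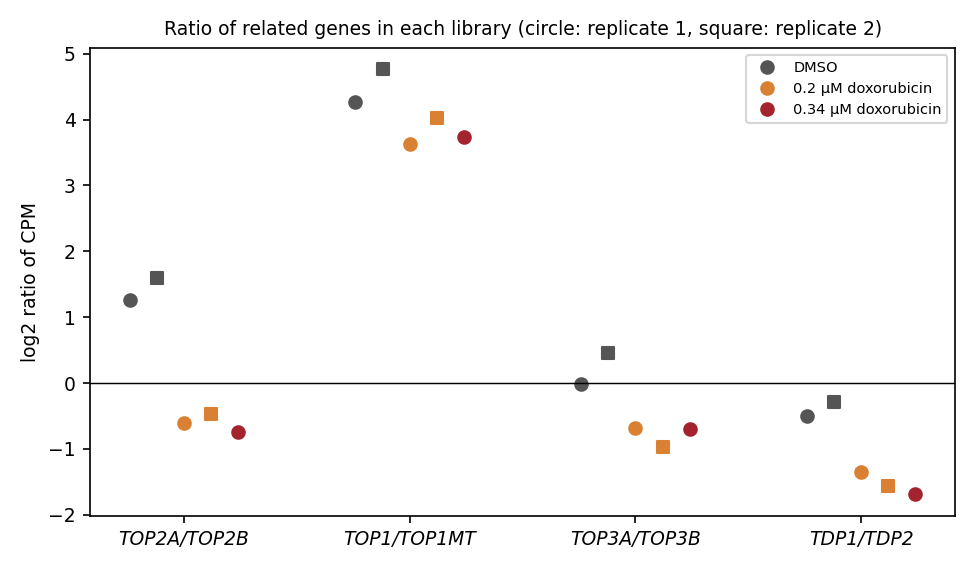
log2 ratio of CPM (vertical axis) of TOP2A to TOP2B, TOP1 to TOP1MT, TOP3A to TOP3B and TDP1 to TDP2 (horizontal axis) in each library, in grey for DMSO, orange for 0.2 μM and red for 0.34 μM, with circles for replicate 1 and squares for replicate 2. In each ratio the 2 DMSO libraries lie above the 3 doxorubicin libraries, with the widest separation for TOP2A to TOP2B (means 1.43 and -0.61). How often other gene pairs separate the groups was not computed, and 47.7% of single genes tested did so in either direction.

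TOP1 encodes the nuclear type IB enzyme that relaxes supercoils ahead of transcription and replication and is the target of camptothecins. The gene, on chromosome 20 (41028822 to 41124487, plus strand), overlaps PLCG1-AS1 on the other strand, which had at most 16 counts in a library. Its counts were 6213 and 5144 in DMSO, 3545 and 4503 at 0.2 μM and 4885 at 0.34 μM. These were 237 and 201 CPM in DMSO, 137 and 187 CPM at 0.2 μM and 135 CPM at 0.34 μM. The groups did not overlap, but replicate 2 of 0.2 μM lay nearer to the lower DMSO library than to the other treated libraries. Their log2 fold change was -0.52 (standard error 0.20, 95% interval -0.98 to -0.05, adjusted p = 0.127 in edgeR), which did not pass the threshold. The pseudogene TOP1P1 had between 38 and 74 counts, and how reads shared with it were counted is not known.

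TOP1MT, which relaxes mitochondrial DNA, was the least counted of the 8 genes. The gene is on chromosome 8 (143309324 to 143359977). Its counts were 321 and 187 in DMSO, 286 and 274 at 0.2 μM and 363 at 0.34 μM. In CPM the treated libraries (11.1, 11.4 and 10.0) lay between the DMSO libraries (12.2 and 7.32). This is a log2 fold change of 0.14 (95% interval -0.48 to 0.77, adjusted p = 0.754 in edgeR). Changes of either sign within this interval are compatible with the data. Its sign rested on DMSO replicate 2, without which it was -0.20.

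TOP3A encodes the type IA enzyme that, with BLM, RMI1 and RMI2, resolves crossed strands after recombination, and it also acts in mitochondria. It lies on chromosome 17 (18271428 to 18314994, minus strand) and contains the pseudogenes RPL7AP65 and RPL21P121. Its levels were 17.7 and 29.7 CPM in DMSO, 15.3 and 13.5 CPM at 0.2 μM and 14.7 CPM at 0.34 μM. The treated libraries lay below both controls, and the controls differed 1.68-fold from each other, more than in any other of these genes. The log2 fold change of -0.70 (standard error 0.24, 95% interval -1.29 to -0.12) had an adjusted p of 0.104 in edgeR. With each library left out in turn it was between -1.04 and -0.30, and the value nearest to 0 was that without DMSO replicate 2.

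TOP3B, a type IA enzyme that also acts on RNA, was the only one of the 8 genes in which all treated libraries were above the controls. Located on chromosome 22 (21957025 to 21982787, minus strand), it overlaps no other annotated gene. Its counts were 466 and 549 in DMSO, 635 and 637 at 0.2 μM and 863 at 0.34 μM. The levels were 17.8 and 21.5 CPM in DMSO, 24.6 and 26.5 CPM at 0.2 μM and 23.8 CPM at 0.34 μM. The log2 fold change of 0.34 (standard error 0.17, 95% interval -0.06 to 0.75) did not pass the threshold (adjusted p = 0.224 in edgeR). Thus TOP3A and TOP3B had fold changes of opposite sign, and the log2 ratio of TOP3A to TOP3B was 0.23 ± 0.33 (SD, n = 2) in DMSO and -0.78 ± 0.16 (SD, n = 3) in doxorubicin (exact permutation test, p = 0.2, the smallest possible).

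TDP1 clears the tyrosine end left by TOP1 on the 3′ side of a break. The gene starts on chromosome 14 (89954968 to 90044764, plus strand) 191 bases from the start of EFCAB11 on the other strand, and overlaps no other annotated gene. Its counts were 708 and 940 in DMSO, 382 and 318 at 0.2 μM and 425 at 0.34 μM. The levels were 27.0 and 36.8 CPM in DMSO, 14.8 and 13.2 CPM at 0.2 μM and 11.7 CPM at 0.34 μM. All treated libraries were well below both controls, and the 0.34 μM library was again the lowest. In edgeR the log2 fold change was -1.27 (standard error 0.20, 95% interval -1.75 to -0.79), with an adjusted p of 0.0111. This missed the threshold, which TDP1 passed in DESeq2 on the same groups (adjusted p = 4.4e-06) and in edgeR without the filter on low counts (adjusted p = 0.00411). It also passed in edgeR with the replicate number as a block and without the 0.34 μM library (adjusted p = 0.00479). Without the block, the same libraries gave an adjusted p of 0.0630 in edgeR. It missed the threshold in limma voom (adjusted p = 0.0127) and in edgeR with each library left out in turn (adjusted p between 0.0158 and 0.0630). For EFCAB11 the value was -0.77 (adjusted p = 0.0737 in edgeR).

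TDP2 clears the tyrosine end left by type II enzymes on the 5′ side of a break, and is thus the enzyme of the pair that acts on the complexes that doxorubicin traps. Its start on chromosome 6 (24649979 to 24666899, minus strand) is 178 bases from the start of ACOT13 on the other strand, and overlaps no other annotated gene. Its counts were 1006 and 1148 in DMSO, 981 and 947 at 0.2 μM and 1377 at 0.34 μM. The levels were 38.4 and 45.0 CPM in DMSO, 37.9 and 39.4 CPM at 0.2 μM and 37.9 CPM at 0.34 μM. The groups overlapped, and the treated libraries were within 1.04-fold of each other, the narrowest range of the 8 genes. The fold change on the log2 scale was -0.12 (standard error 0.15, 95% interval -0.48 to 0.24, adjusted p = 0.647 in edgeR). The log2 ratio of TDP1 to TDP2 was -0.40 ± 0.15 (SD, n = 2) in DMSO and -1.54 ± 0.17 (SD, n = 3) in doxorubicin (exact permutation test, p = 0.2, the smallest possible).

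**Figure D3:**
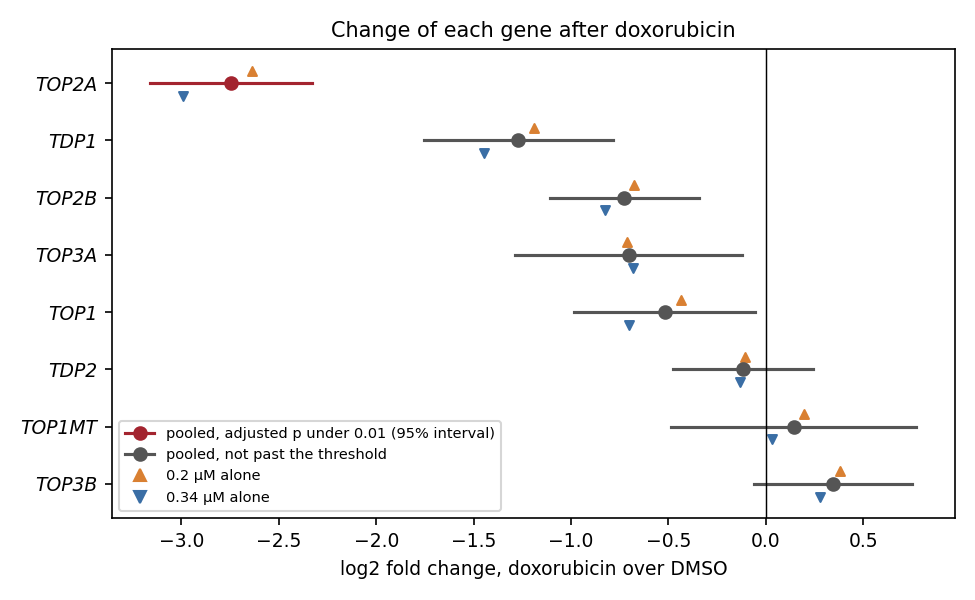
log2 fold change of doxorubicin over DMSO (horizontal axis) for each gene (vertical axis). Circles are the fit of the 3 pooled doxorubicin libraries with 95% intervals (red, adjusted p under 0.01; grey, not past it), and triangles the 0.2 μM and 0.34 μM libraries alone in a fit of 3 conditions. TOP2A stands at -2.75 and TDP1 at -1.27, and the intervals of TDP2, TOP1MT and TOP3B include 0.

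No difference between the doses was detectable in these genes. At 0.2 μM alone the log2 fold change was -2.64 for TOP2A, -1.19 for TDP1 and -0.68 for TOP2B, and at 0.34 μM alone it was -2.99, -1.45 and -0.83. Both doses were compared with the same DMSO libraries. TOP2A passed the threshold at either dose (adjusted p = 0.00257 and 0.00655 in edgeR), and no other of the 8 genes did at either. Between 0.34 and 0.2 μM, the log2 difference of TOP2A was -0.35 (95% interval -0.996 to 0.29, unadjusted p = 0.233 in edgeR's fit). The intervals of the other 7 genes all included 0, with limits between -1.17 and 0.95. No gene of the 14187 tested passed the threshold between the doses in edgeR or limma voom, and 0.155% had an unadjusted p under 0.05 in edgeR. In DESeq2, which was run on a larger set of genes, none passed either. The 0.34 μM library has no replicate, and its spread was taken from the other libraries.

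Levels of different genes were compared per length, as CPM per kilobase of the canonical transcript (GENCODE). In DMSO, TOP2A was highest with 122 ± 0.295 (SD, n = 2), above 96.5% of the 12009 genes tested that had a length. TOP1 followed with 58.7 ± 6.73 and TOP2B with 44.7 ± 7.50, and their libraries did not overlap with each other. TDP2 had 21.5 ± 2.41 CPM per kilobase. TDP1 (8.57 ± 1.86), TOP3B (6.93 ± 0.930), TOP1MT (5.04 ± 1.79) and TOP3A (3.59 ± 1.29) formed the low end, and neighbours in that order overlapped. In doxorubicin the order was TOP1 (41.0 ± 7.95, SD, n = 3), TOP2B (27.0 ± 1.60), TDP2 (19.9 ± 0.428) and TOP2A (18.2 ± 2.60), of which TDP2 and TOP2A overlapped. TOP3B (8.80 ± 0.491), TOP1MT (5.57 ± 0.374), TDP1 (3.56 ± 0.411) and TOP3A (2.20 ± 0.139) followed without overlap.

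Summed over the 6 topoisomerases, the level was 251 and 231 CPM per kilobase in DMSO and 100.3, 116 and 92.4 in doxorubicin. TOP2A made up 48.7% and 52.8% of this sum in DMSO, and 18.8%, 17.7% and 16.6% after the drug. The share of TOP1 was 25.3% and 23.3% in DMSO and between 36.6% and 43.4% in doxorubicin, and that of TOP3B 2.50% and 3.28% in DMSO and between 8.08% and 9.08%. A larger share of the sum does not show that the mRNA of that gene rose. The order depends on the length used: with all annotated exons of a gene as its length, TOP2A made up 70.5% and 73.1% of the sum in DMSO and between 32.8% and 36.2% in doxorubicin, where TOP1 had between 29.2% and 35.0%.

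**Figure D4:**
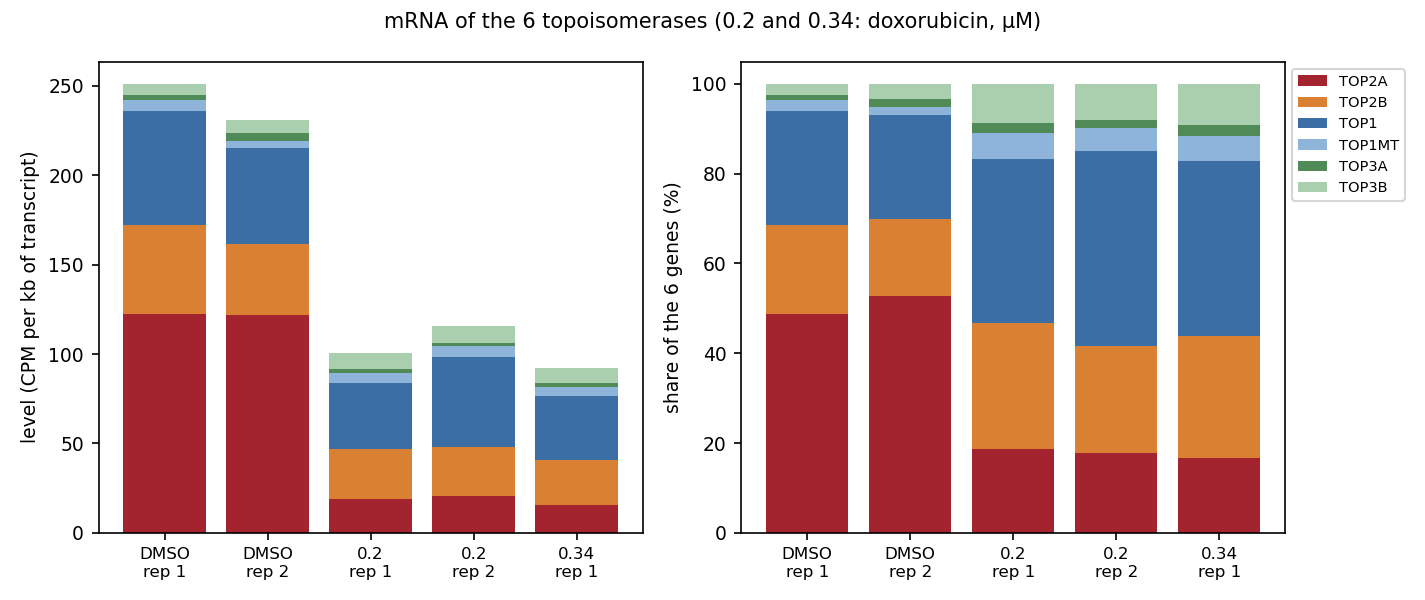
Level of the 6 topoisomerase mRNAs in CPM per kilobase of canonical transcript (left, stacked bars from 0) and the share of each in their sum in percent (right), by library. The sum is 251 and 231 in DMSO and between 92.4 and 116 in doxorubicin, and the TOP2A part shrinks from 48.7% and 52.8% to between 16.6% and 18.8%.

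The genes differ in length. TOP1, TDP1 and TOP2B span 95.7, 89.8 and 67.0 kb and were among the 4335 tested genes with the longest span, whose median log2 fold change was -0.094. TOP2A (29.4 kb) and the other 4 were among the 4335 genes of middle span, with a median of 0.0099. The 4335 genes with the shortest span had a median of 0.12.

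Genes that work with the topoisomerases were examined as well. The list of partner genes and that of genes clearing trapped complexes were also chosen with earlier results of these data known. In a list of 8 partner genes, 8 had a log2 fold change below 0, as did 6933 of all 14187 genes tested. The threshold was passed as lower by 3, where 2.73% of all genes tested did (0 higher), and the median log2 fold change was -1.31. In 8 of the 8 the treated libraries lay below both controls, where 23.4% of all genes tested did so. ERCC6L, the PICH translocase that works with TOP2A on stretched DNA in anaphase, fell from 31.5 to 2.53 CPM, with a log2 value of -3.65 (standard error 0.33, adjusted p = 0.00163 in edgeR). BLM, the helicase of the TOP3A complex, fell from 19.1 to 2.88 CPM (log2 fold change -2.74, standard error 0.30, adjusted p = 0.00327 in edgeR). TOPBP1, a checkpoint scaffold first found as a partner of TOP2B, fell with a log2 fold change of -1.55. RMI1 and RMI2, the other subunits of the TOP3A complex, had values of -1.31 and -1.32 and adjusted p-values of 0.0138 and 0.0231 in edgeR. TDRD3 and FMR1, partners of TOP3B, had -0.71 and -0.42, and the ligase TOPORS had -0.36. Between the controls, the median log2 difference of the partners (replicate 2 minus replicate 1) was 0.40. None of its 8 genes passed the threshold without DMSO replicate 2, and 1 did without each other library.

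In a list of 19 genes that clear or repair trapped complexes, 11 had a log2 fold change below 0 and 8 above 0, with a median of -0.16. The threshold was passed by 2 as lower and 0 as higher, where 2.73% and 1.29% of all genes tested did. RBBP8 (CtIP), which opens ends for resection with the MRE11 complex, fell from 62.6 to 25.5 CPM (log2 fold change -1.30, standard error 0.16, adjusted p = 0.005 in edgeR). PARP1, which senses broken strands, fell from 157 to 73.8 CPM (log2 fold change -1.09, standard error 0.17, adjusted p = 0.00973 in edgeR). DESeq2 on the same groups called 8 genes of the list lower, where 7.77% of its genes were. Of the SUMO and ubiquitin ligases, RNF4 had a log2 fold change of -0.75, and PIAS4 and ZNF451, the ligase that assists TDP2, had 0.04 and 0.08. The proteases for trapped proteins had values of 0.0065 for SPRTN and -1.32 for FAM111A (adjusted p = 0.985 and 0.0172 in edgeR). Of the genes that process or seal ends, MRE11 had -0.98, NBN -1.10, RAD50 -0.16, XRCC1 -0.81, LIG3 -0.28, ERCC1 0.21 and ERCC4 0.18. VCP, TEX264 and GCNA had 0.10, 0.23 and -0.11. Both calls of this list were lost without DMSO replicate 1, DMSO replicate 2, replicate 1 of 0.2 μM or the 0.34 μM library, and 1 remained without replicate 2 of 0.2 μM. Of the meiotic relatives of type II enzymes, SPO11 had 0 counts in every library, and TOP6BL had a value of -0.44 (adjusted p = 0.167 in edgeR).

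**Figure D5:**
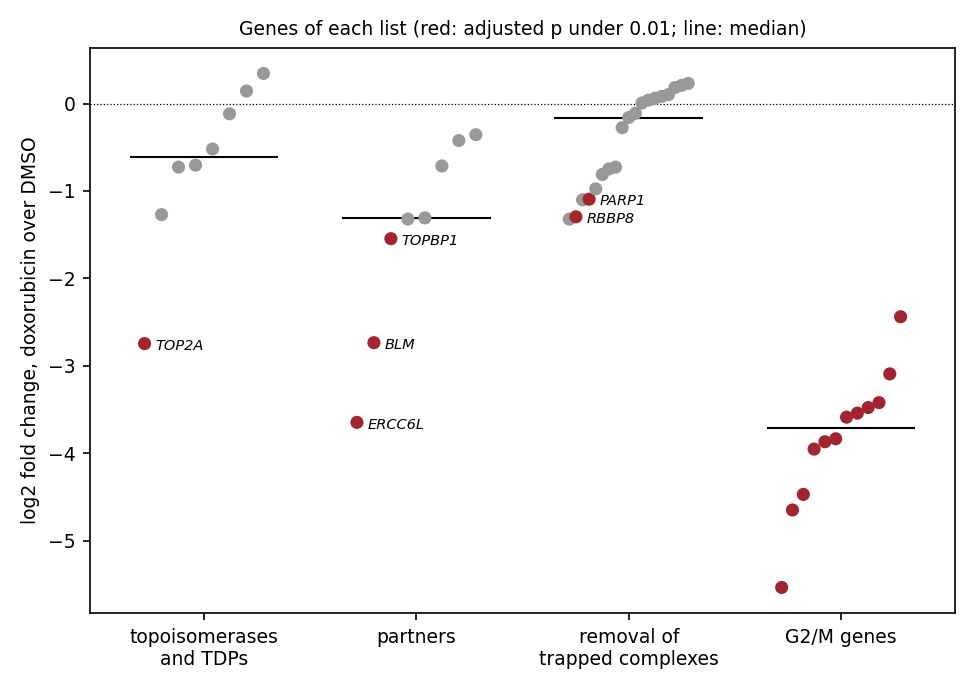
log2 fold change of doxorubicin over DMSO (vertical axis) for the 8 topoisomerase and TDP genes, 8 partner genes, 19 genes for removal of trapped complexes and 12 G2/M genes. Each point is a gene, red where the adjusted p was under 0.01, and lines are medians (-0.61, -1.31, -0.16 and -3.71).

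The genes with the most similar pattern were found as those with the smallest root mean square distance of log2 CPM, centred over the 5 libraries. For TOP2A they were SMC4, a condensin subunit, EMP2 and PSRC1, a spindle protein, at distances of 0.045, 0.060 and 0.090. The log2 fold change of SMC4 was -2.81, beside -2.75 for TOP2A. For TOP2B they were CLOCK, TNNT1 and RDX (0.038, 0.039 and 0.040), and for TDP1 they were SLC25A40, HAUS1 and SLC4A8 (0.059, 0.072 and 0.074). Ranked by Pearson's correlation over the same 5 libraries, 0 of these 3 genes were shared for each of TOP2A, TOP2B and TDP1, so that the neighbours depend on the measure.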

How the data were processed

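RNA-seq counts of 5 RPE1 libraries were used. Per the study, STAR placed the paired-end reads on hg38, and the authors counted them per gene with featureCounts of Rsubread and the iGenomes annotation, and deposited raw counts without normalization. No version, strand setting or rule for reads with several places was found in the labels or methods. A second deposited table holds the authors' own DESeq2 comparison (mean, fold change and p-values) and was not used.

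The main test was edgeR 4.0.16 (R 4.3.3, quasi-likelihood, TMM, minimum count of 10 and minimum total of 15) on 3 doxorubicin against 2 DMSO libraries, with a threshold of 0.01. The doses were compared as a contrast in a fit of 3 conditions. DESeq2 1.42.0 and limma 3.58.1 were alternatives. Standard errors are the absolute log2 fold change over the square root of F. Ratios used log2 CPM with a prior count of 2. The pipeline was tested on simulated data. Replicate pairs differed by more than sampling noise (chi-square per degree of freedom of 117 and 75.3), and all libraries were counted as separate.

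The named genes are the 8 genes, list genes and the 3 nearest genes by pattern. These genes and the lists, compiled from general knowledge, were chosen with earlier results of these data known. Older symbols matched 3 list genes (ACRC for GCNA, MRE11A for MRE11, C11orf80 for TOP6BL). Positions and promoters are from RefSeq on GRCh38.p14, and lengths from GENCODE on GRCh37, as lengths only. Values of some list genes are not reported here.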

Additional observations from a re-analysis of the deposited data

How the results depend on the processing

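With 2 and 3 libraries and no replicate at 0.34 μM, changes smaller than the intervals given were not detectable, and the p-values measure only the spread between these libraries. Against 571 genes past the threshold (68.0% of them lower), DESeq2 gave 2028 (54.8% lower), no filter on low counts 1020, an adjusted p of 0.05 gave 1927, the 0.2 μM libraries alone 171 and the mean of the doses 323. Leaving out 1 library gave between 49 (without DMSO replicate 2) and 215 (without DMSO replicate 1) genes. Of the 8 topoisomerase and TDP genes, 1 passed the threshold in the main analysis and in every fit that left out 1 library, 3 in DESeq2, 3 at 0.05 and 2 without the filter. In DESeq2, 5 partner genes and 8 removal genes passed. Of all genes, 4.02% passed in the main analysis, 14.2% in DESeq2 and 13.6% at 0.05. Without the filter, 1020 of 20717 genes passed. With 1 library left out, between 0 and 1 genes passed in each of these lists, an analysis added after the data were seen. A fit with the replicate number as a block, without the 0.34 μM library, gave 1249 of 13891 genes tested. It gave 2 of the 8 genes (TOP2A, and TDP1 with adjusted p = 0.00479 in edgeR), 5 partner genes and 4 removal genes. Without the block, the same libraries gave 178 of 13891 genes and 1 of the 8 genes (TOP2A), and TDP1 had an adjusted p of 0.0630. They gave 1 partner gene and 0 removal genes. The counts for the partner and removal lists were added after the data were seen. The labels do not say that a number marks a shared batch, so the main analysis did not take the numbers as pairs. The replicate 2 minus replicate 1 differences of DMSO and of 0.2 μM correlated at 0.528 across genes, which are not independent. A batch shared by same-numbered libraries was not tested. The sign of TOP1MT turned when DMSO replicate 2 was left out (between -0.20 and 0.55 over the fits without 1 library). Between the doses, the fits without 1 library ranged from -0.054 to 0.154 for TOP3A and from -0.0226 to 0.0037 for TDP2, beside 0.03 and -0.0267 with all libraries, and both signs turned without replicate 2 of 0.2 μM. With all exons as the length, a choice added after the data were seen, the share of TOP2A in TOP2A and TOP2B was 88.7% in DMSO and 65.7% in doxorubicin, against 73.3% and 40.2% with the canonical transcript, since all exons of TOP2B hold 18645 bases against 5814 in that transcript, and those of TOP2A 6374 against 5695. The cause of the other changes was not tested.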
